A study of Homo sapiens with 21 samples.

Results

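The comparison described here sets the 3 RNA-Seq libraries labelled shARID1A.2 against the 3 labelled shARID1A.4, which are 6 of the 21 libraries of the series. All 6 come from SK-N-BE(2), an established human neuroblastoma cell line, 72 h after transduction with lentiviral particles that carried a short hairpin RNA (shRNA). The label gives both conditions the same treatment, silencing of ARID1A, and the names differ only in the number of the hairpin. The remaining 15 libraries, in sets of 3, are labelled as a non-silencing control, shARID1B.2, shARID1B.3 and the combinations shARID1A/B.2.3 and shARID1A/B.4.2. No control library enters the comparison, and control levels are given only as a description. The cells of a condition were a transduced population of 1 cell line, so the libraries of a condition are replicates of that population and not different tumours.

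ARID1A and ARID1B are alternative subunits of the BAF form of the SWI/SNF chromatin remodeller, which slides or evicts nucleosomes and so opens enhancers and promoters. An shRNA is cut into a short guide strand that directs the silencing complex to complementary transcripts, and partial matches through the seed of the guide can also lower other transcripts. Hairpins against the same gene are therefore commonly compared with each other. The hairpin sequences were not analysed here, and no search for seed matches was made.

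The 6 libraries held 28558500 to 38004732 reads, and replicate libraries correlated at r = 0.991 to 0.9935 over genes on the log2 scale. A chi-square test of their reads over genes gave 1.54 to 3.15 per degree of freedom between replicates, above the 1 of pure counting noise, and none was taken for a copy of another. Values are given as deposited, that is, reads on a gene divided by 1 size factor per library, and every difference is the mean log2(value + 1) of the libraries labelled shARID1A.2 minus that of the libraries labelled shARID1A.4, tested with limma. As the labels do not say whether the triplicates are separate transductions, the p-values measure only the spread between these libraries. Mitochondrially encoded transcripts took 6.06 to 6.61% of reads in shARID1A.2 and 5.85 to 6.14% in shARID1A.4, and cytosolic ribosomal protein transcripts took 6.59 to 6.81% and 6.61 to 7.0%. In bulk RNA, fewer cells of a kind and less RNA per cell cannot be told apart.

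The targeted gene was examined first. ARID1A (chr1:26693236-26782110, GRCh38) stood at 2169, 2160 and 2109 in the libraries labelled shARID1A.2 and at 2289, 2157 and 2284 in those labelled shARID1A.4, against 6097 to 6463 in the control libraries. The ranges of both hairpins overlapped, and the log2 difference was -0.06 (SE 0.03, limma, adjusted p = 0.0838). It was called without shARID1A.4 replicate 2 (-0.09), and its sign turned under scaling to total reads (0.09). ARID1B (chr6:156776020-157210779), which neither label names as a target, was also low. It measured 2252, 2249 and 2224 in shARID1A.2 and 3065, 3110 and 3126 in shARID1A.4, against 5791 to 5804 in the control. Here the ranges did not overlap, and ARID1B was 1.38-fold lower in shARID1A.2 (log2 difference -0.47, SE 0.03, limma, adjusted p = 7.53e-10). In the libraries labelled shARID1B.2 and shARID1B.3 the mean of ARID1A was 1920 and 2479 with ARID1B at 5004 and 6091, whereas those labelled shARID1A/B.2.3 and shARID1A/B.4.2 had ARID1A at 5659 and 5440 and ARID1B at 2599 and 1907. The levels of these genes thus departed from the labels in all 6 silenced conditions, though not in the same way. Under the shARID1A labels ARID1A was low, as labelled, but ARID1B was low as well. ARID1A was the low gene under the shARID1B labels, and ARID1B was the low gene under the shARID1A/B labels. The condition names used below are those of the labels only.

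**Figure D1:**
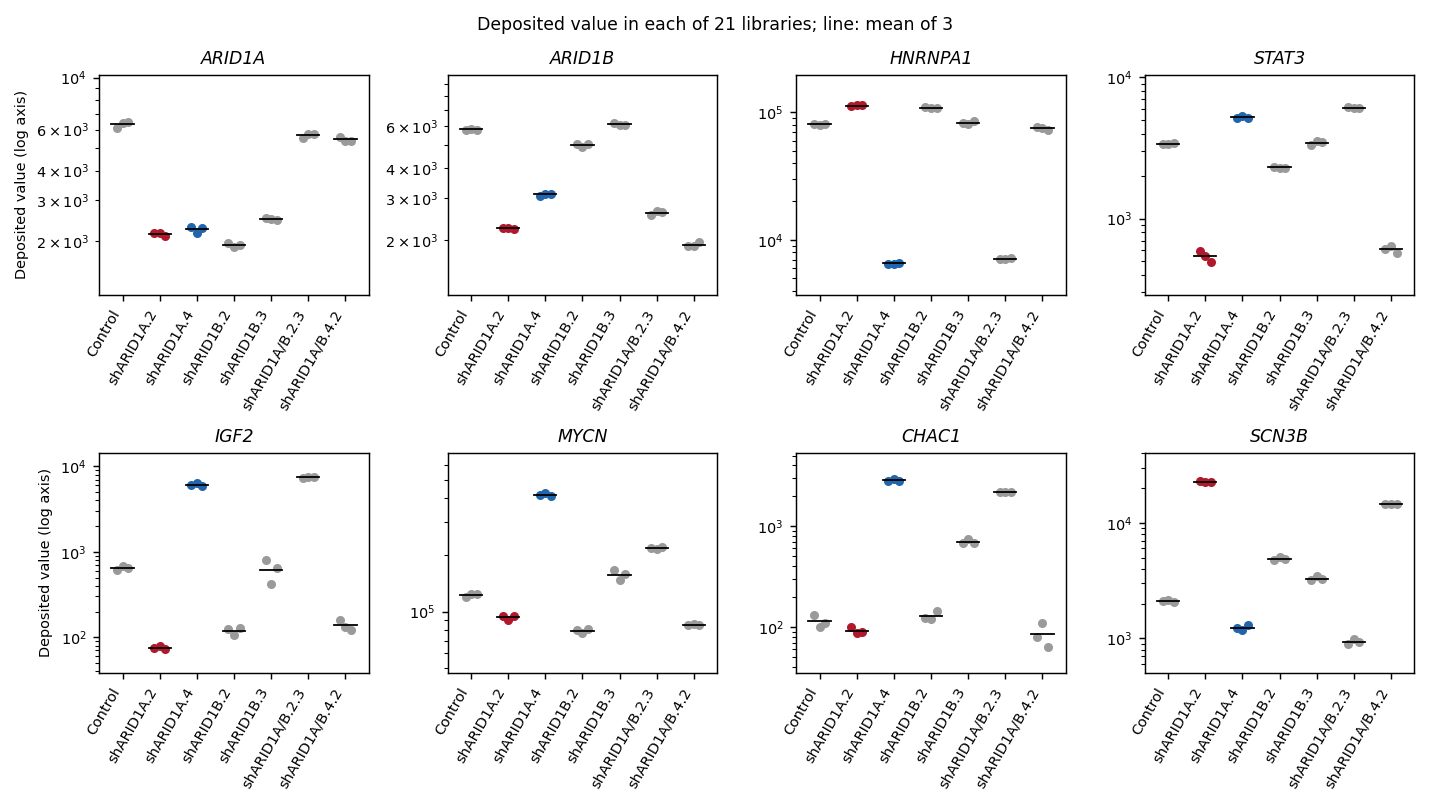
Deposited value (log axis) of 8 genes in each of the 21 libraries, by labelled condition, with the mean of 3 as a line; libraries labelled shARID1A.2 are red, shARID1A.4 blue and all others grey. ARID1A is alike in both coloured conditions, HNRNPA1 is at 6444 to 6619 only in shARID1A.4 and near 7121 in shARID1A/B.2.3, and STAT3 is low in shARID1A.2 and shARID1A/B.4.2.

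The transcriptomes differed widely. Both conditions had the same hairpin target on the label and a similar level of ARID1A, but ARID1B was lower in shARID1A.2. Of 17284 genes tested, 13715 (79.4%) were called at an adjusted p under 0.05 (limma), 6909 of them higher in shARID1A.2 (40.0%) and 6806 lower (39.4%). Most of these differences were small, the median size over all genes tested being 0.51 on the log2 scale. A log2 difference over 1 in size was reached by 4077 genes (23.6%), 2410 higher (13.9%) and 1667 lower (9.64%), and 953 genes differed by more than 4-fold, 591 higher and 362 lower. The libraries of both conditions did not overlap for 13982 genes (80.9%), a share against which the statements on ranges below should be read. The like pairs gave 12005 of 17186 genes for shARID1B.2 against shARID1B.3 (69.9%) and 13593 of 17307 for shARID1A/B.2.3 against shARID1A/B.4.2 (78.5%), with a log2 difference over 1 in 2306 (13.4%) and 3776 genes (21.8%). Scaling to total reads in place of the deposited size factors moved the median of all genes by 0.15 and the share of calls that were higher in shARID1A.2 from 50.4% to 60.4%.

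**Figure D2:**
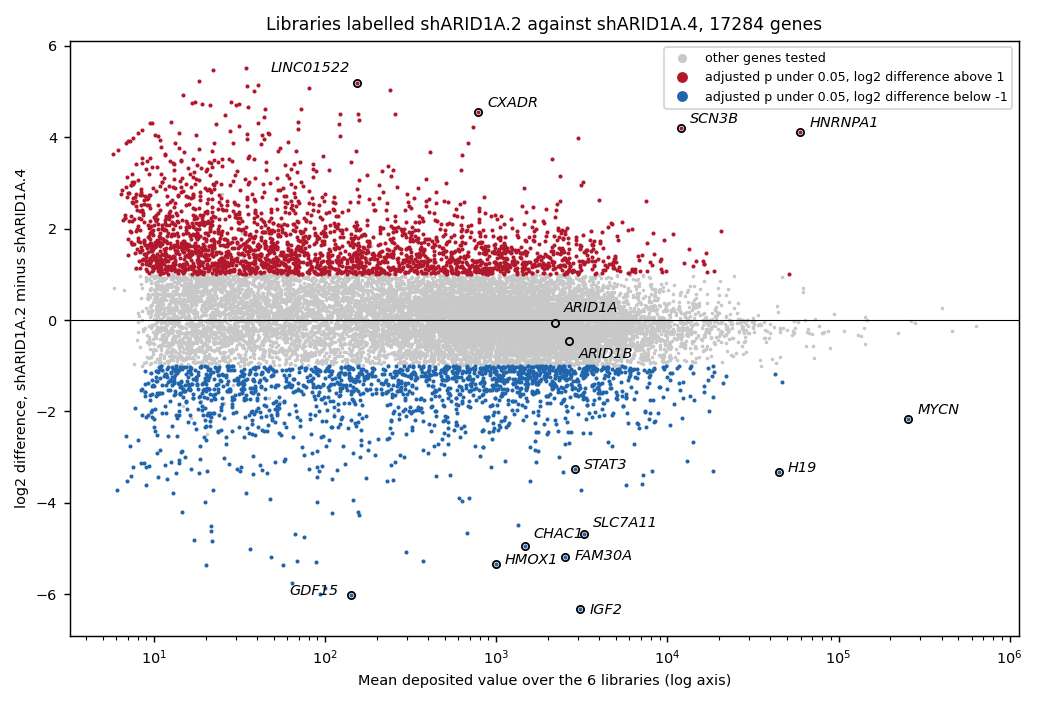
Log2 difference (shARID1A.2 minus shARID1A.4) of each of 17284 genes against the mean deposited value over the 6 libraries (log axis), with genes past a log2 difference of 1 in colour and some named genes circled. HNRNPA1 and SCN3B stand apart among abundant genes at 4.11 and 4.20, IGF2 lies lowest of the circled genes at -6.31, and ARID1A and ARID1B lie near 0.

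The most abundant of the 12 genes with the largest positive differences was HNRNPA1 (chr12:54280193-54287088), which encodes an RNA-binding protein that takes part in splicing and in the export of mRNA. It measured 111258, 113653 and 114245 in the libraries labelled shARID1A.2 and 6516, 6444 and 6619 in those labelled shARID1A.4. All shARID1A.4 libraries were thus far below all others of the comparison, with a log2 difference of 4.11 (SE 0.02, limma, adjusted p = 4.79e-20), or 17.3-fold. The control libraries stood at 79297 to 81384, and among the other conditions only shARID1A/B.2.3 was low, with a mean of 7121 against 108737 in shARID1B.2, 83061 in shARID1B.3 and 75244 in shARID1A/B.4.2. Transcripts of near-identical copies moved with it: HNRNPA1P48 was at 1374 to 1419 in shARID1A.2 and 71.8 to 74.9 in shARID1A.4, and HNRNPA1L2 at 473 to 524 and 150 to 152. Since reads can be split between these copies, their separate values are uncertain. CBX5, a heterochromatin protein gene (chr12:54230940-54280133) that is read from the opposite strand and starts next to HNRNPA1, went the other way, at 8721 to 8873 in shARID1A.2 and 17852 to 18746 in shARID1A.4 (log2 difference -1.05, limma, adjusted p = 2.76e-14).

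Other genes among the 12 largest positive differences had varied roles. SCN3B, a beta subunit of voltage-gated sodium channels, measured 22851, 22440 and 22763 in shARID1A.2 and 1222, 1171 and 1302 in shARID1A.4, a log2 difference of 4.20 (SE 0.03, limma, adjusted p = 3.33e-18). It was above the control level of 2065 to 2153 in the first and below it in the second, so the conditions lay on either side of the control. CXADR, a cell adhesion molecule and virus receptor, was at 1453 to 1554 against 60.6 to 67.9, with a control mean of 621. PRLR, the prolactin receptor, stood at 212 to 262 against 8.32 to 10.7, and RBM24, a splicing regulator of muscle, at 283 to 325 against 12.6 to 15.5. For RBM24 the control mean was 220, so the low condition was shARID1A.4, whereas for PRLR, with a control mean of 5.82, the high condition was shARID1A.2. The long non-coding RNAs LINC01522 and PCAT14, together with KIAA0040, XKR5 and KY, were also among the 12 largest positive differences, which ranged from 4.03 to 5.20.

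The largest negative difference among the genes so selected was that of IGF2. IGF2 (chr11:2129112-2149603), a fetal growth factor, measured 75.6, 79.3 and 72.4 in the libraries labelled shARID1A.2 and 6000, 6427 and 5891 in those labelled shARID1A.4. The log2 difference was -6.31 (SE 0.05, limma, adjusted p = 4.2e-18), or 79.5-fold, and the control mean of 650 lay between both. Values are also given for H19 and TH on the same chromosome, of which H19 was chosen after its values were seen. H19, an imprinted non-coding RNA (chr11:1995176-2001470), stood at 7912 to 8158 against 79603, 84549 and 79491, with a log2 difference of -3.33 and a control mean of 34810. TH, the rate-limiting enzyme of catecholamine synthesis (chr11:2163929-2171877), was at 801, 588 and 705 against 1775, 1599 and 1615, a log2 difference of -1.26 (SE 0.08, limma, adjusted p = 4.31e-09). For TH the control mean of 678 was nearer to shARID1A.2. All 3 genes were higher in shARID1A.4 and above their control means there.

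Stress-induced genes were among the other large negative differences. HMOX1, which encodes the haem-degrading enzyme of the oxidative stress response, was at 52.3, 51.5 and 37.9 in shARID1A.2 and at 1876, 2025 and 1923 in shARID1A.4 (log2 difference -5.35). GDF15, a secreted stress cytokine, had 11 reads in the 3 shARID1A.2 libraries together and 802 in the shARID1A.4 libraries, a ratio of 78.0 with a 95% exact interval of 43.3 to 157, which covers counting error only. NIBAN1, another stress-induced gene, was at 12.4 to 26.7 against 550 to 609, and ADM2, a peptide of the adrenomedullin family, at 46.4 to 55.7 against 1256 to 1309. For HMOX1, NIBAN1 and ADM2 the control means of 99.1, 7.48 and 75.1 were nearer to the shARID1A.2 level. NPTX1, CPLX3 and ANO3, which are expressed in neurons, and MALL and FAM30A were also among the 12 largest negative differences, which ranged from -4.22 to -6.31. FAM30A, a non-coding RNA, was at 126 to 153 and 4894 to 4955, and its control mean of 9328 was above both.

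The group with the most uniform difference was that of the integrated stress response. In this response, phosphorylation of the translation factor eIF2 slows protein synthesis in general while it raises translation of ATF4, which in turn activates genes for amino acid synthesis, amino acid uptake and tRNA charging. All 41 listed genes were tested and all 41 were called, 39 lower in the libraries labelled shARID1A.2 (beside 39.4% of all genes tested) and 2 higher. Of the 39, 31 had a log2 difference below -1, beside 9.64% of all genes tested. The median over the list was -1.65, beside 0.018 over all genes tested. The ranges of the conditions did not overlap for any member.

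A short stretch of the promoter is shown for the 4 members in which the composite ATF4 and C/EBP element was found. The letters TGATGCAA were searched on both strands in RefSeq promoters (GRCh38.p14) of 300 bases, from 250 before to 50 after the start, which could be matched by symbol for 35 of the 41 genes. They occurred in 4 of 35 (11.4%), against 252 of 27305 promoters in all (0.923%), and most promoters of the list held no match. All 4 genes were lower in shARID1A.2. Each line gives 30 bases in the direction of the gene, with the matched letters or their reverse complement in capitals. The stretches lie at chr15:40953251-40953280 (plus strand), chr12:57488053-57488082 (plus), chr16:70289675-70289704 (minus) and chr18:57621804-57621833 (minus).
CHAC1: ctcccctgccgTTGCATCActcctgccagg
MARS1: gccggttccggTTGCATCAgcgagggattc
AARS1: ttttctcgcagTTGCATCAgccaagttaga
NARS1: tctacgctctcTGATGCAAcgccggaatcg
A match is a description of these letters only, and no binding was measured. The first 3 genes carry the element in the same orientation, and their log2 differences were -4.94, -1.70 and -1.36, with -0.69 for NARS1.

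Among the transcription factors of the response, 7 of 7 were lower in shARID1A.2. ATF4 itself differed least, at 16610, 16635 and 16584 in shARID1A.2 and 22319, 23393 and 22249 in shARID1A.4 (log2 difference -0.45, SE 0.02, limma, adjusted p = 2.84e-10). The other factors differed more. ATF5 was at 455, 432 and 450 against 4561, 4440 and 4380 (-3.32), and DDIT3, which encodes the pro-apoptotic factor CHOP, at 656, 654 and 627 against 2490, 2730 and 2639 (-2.02). ATF3 (-3.42) and NUPR1 (-3.98) followed the same order. All 7 stress effectors were lower as well. CHAC1, which degrades glutathione, measured 99.7, 86.5 and 89.1 in shARID1A.2 and 2803, 2927 and 2780 in shARID1A.4, a log2 difference of -4.94 (SE 0.06, limma, adjusted p = 1.33e-16). DDIT4 differed little between the hairpins, at 10774 to 11131 and 13129 to 13416, and both conditions were above the control range of 2456 to 2662.

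Of the 12 genes of amino acid synthesis, 11 were lower in shARID1A.2. ASNS, asparagine synthetase, was at 2346, 2461 and 2586 against 12341, 12748 and 12500 (-2.35), and PSAT1, an enzyme of serine synthesis, at 2759, 2682 and 2819 against 22521, 23706 and 23627 (-3.08). For ASNS the shARID1A.2 libraries lay at the control level of 2383 to 2470, whereas for PSAT1 they lay below the control level of 8769 to 8905. The exception was CTH, which makes cysteine from cystathionine, at 96.9 to 111 against 27.9 to 37.9 (log2 difference 1.62). Among the transporters 6 of 7 were lower. SLC7A11, the cystine importer, measured 259, 228 and 249 against 6568, 5890 and 6435 (log2 difference -4.68, SE 0.05, limma, adjusted p = 5.98e-17), with 585 to 612 in the control. SLC7A5, which imports large neutral amino acids, measured 3540, 3302 and 3377 against 33868, 33444 and 33093 (-3.30). SLC38A2, a sodium-coupled neutral amino acid transporter, was the exception at 9965 to 10781 against 4788 to 4986 (1.06). All 8 aminoacyl-tRNA synthetase genes, whose products charge tRNAs, were lower, with a median log2 difference of -1.62.

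**Figure D3:**
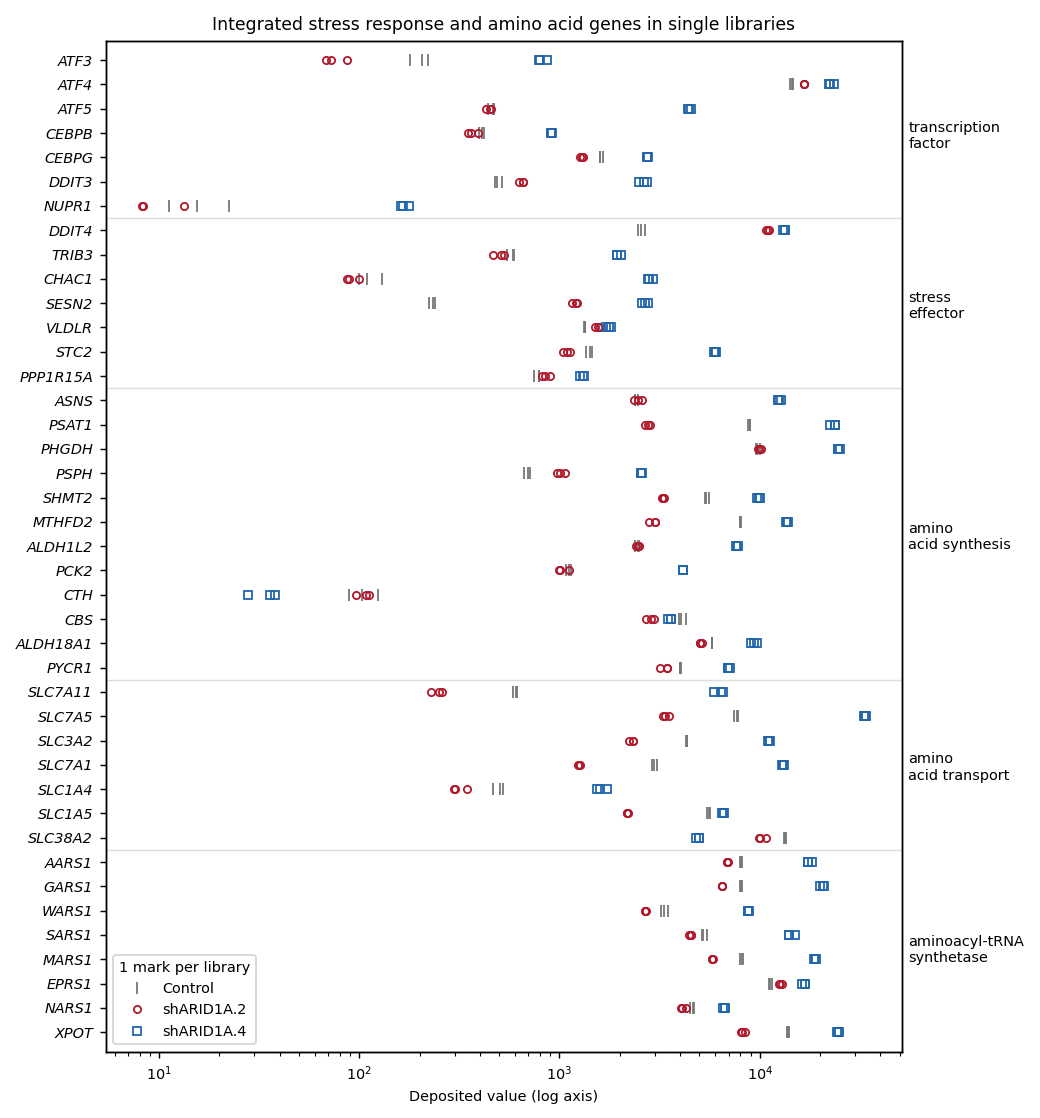
Deposited value (log axis) of the 41 integrated stress response and amino acid genes in single libraries, ordered by role, with libraries labelled shARID1A.2 as red circles, shARID1A.4 as blue squares and control as grey ticks. The squares lie to the right of the circles for 39 genes and to the left for CTH and SLC38A2.

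Relative to the control, described without a test, all 3 shARID1A.4 libraries were above all control libraries for 38 of the 41 genes. The shARID1A.2 libraries were all below all control libraries for 25 genes and above for 8. The listed genes of the unfolded protein response, a related stress of the endoplasmic reticulum, were called in both directions. Of 15 genes 4 were higher and 7 lower in shARID1A.2 (40.0% and 39.4% of all genes tested), with a median of 0.00. Under total-read scaling 8 were higher and 6 lower, with a median of 0.15. With the deposited values, 3 were lower and 0 higher past a log2 difference of 1 in size, beside 9.64% and 13.9% of all genes. XBP1, a transcription factor of that response, and HERPUD1, a gene of protein degradation at the endoplasmic reticulum, were lower in shARID1A.2 with log2 differences of -1.95 and -1.65.

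Immediate early genes, which respond to growth factor and calcium signals within minutes, also differed. Of 29 tested, 20 had lower levels in shARID1A.2 and 4 had higher ones, beside 39.4% lower and 40.0% higher among all genes tested. Past a log2 difference of 1 in size 16 were lower and 1 higher, beside 9.64% and 13.9% of all genes, and the median was -1.43. EGR1 measured 446, 444 and 431 in shARID1A.2 and 5848, 5725 and 5985 in shARID1A.4 (log2 difference -3.73, SE 0.03, limma, adjusted p = 7.01e-18), on either side of the control mean of 2795. EGR3 was at 16.5 to 20.1 against 169 to 179, a log2 difference of -3.19. The activity-regulated gene ARC had a log2 difference of -2.87, the nuclear receptor NR4A1 of -2.44 and SPRY4, a feedback inhibitor of receptor tyrosine kinases, of -2.08. FOSB went the other way, with a mean of 65.1 against 14.5 (2.10). DUSP6, a phosphatase that dampens ERK signalling, had a mean of 1326 in both conditions, with a log2 difference of 0.00 and an SE of 0.05.

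Interferon-stimulated genes were called in both directions. Of 42 tested, 16 were higher in shARID1A.2 and 19 lower, shares close to the 40.0% and 39.4% of all genes tested, with 9 and 11 of them past a log2 difference of 1 in size and a median of -0.18. Of 5 factors that carry the interferon signal, 3 were higher and 1 was lower. STAT2 had a mean of 1260 in shARID1A.2 and 387 in shARID1A.4 (log2 difference 1.70, SE 0.05, limma, adjusted p = 1.12e-12) and IRF9 of 555 and 141 (1.97). Among antiviral effectors 10 were higher and 16 lower. ADAR, which edits double-stranded RNA, had a mean of 8853 against 24075 (-1.44) and OAS3, a sensor of double-stranded RNA, of 150 against 842 (-2.48). BST2, which tethers virus particles to the membrane, had a mean of 194 against 44.6 (2.11). MAVS, the adaptor of the cytoplasmic RNA sensors, was at 7191 against 3444 (1.06). OAS1 measured 14.1 to 21.2 against 101 to 118, with a control mean of 109, so the low condition was shARID1A.2.

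The interferon response element was looked for in the promoters, and 4 stretches with a match are shown, from genes that were higher and genes that were lower. The element, GAAA and again GAAA with any 2 bases between, was searched in the same promoters on both strands, and occurred in 23 of 40 listed genes with a promoter (57.5%) against 3.65% of all promoters. Of the tested genes, 19 had a match, and 7 of these were higher and 9 lower in shARID1A.2, again near the shares of all genes. The stretches lie at chr12:112938321-112938350 (plus strand), chr15:88638937-88638966 (plus), chr19:17405741-17405770 (minus) and chr4:168318821-168318850 (minus).
OAS3: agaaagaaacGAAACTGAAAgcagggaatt
ISG20: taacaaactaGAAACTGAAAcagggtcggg
BST2: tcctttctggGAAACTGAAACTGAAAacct
DDX60: gtgctgaaggGAAACTGAAAcctaagtgct
All 4 carry the same 10 letters, with overlapping copies in BST2. OAS3 and ISG20, an exonuclease gene, were lower in shARID1A.2 with log2 differences of -2.48 and -2.51, and BST2 and the helicase gene DDX60 were higher with 2.11 and 0.88.

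Genes of antigen presentation by MHC class I were lower in shARID1A.2 for 11 of 14 tested and higher for 2, beside 39.4% and 40.0% of all genes, with a median of -0.57. NLRC5, the activator of these genes, was at 44.9, 67.0 and 49.0 against 477, 426 and 477 (log2 difference -3.10, SE 0.13, limma, adjusted p = 3.95e-11), and TAP2, a peptide transporter, at 326 to 380 against 1689 to 1818 (-2.34). HLA-E, a non-classical MHC gene, and HLA-F were higher, by 1.34 and 1.29.

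The neuroblastoma markers were all detected in both conditions, with a summed level of 136823 to 141923 in shARID1A.2 and of 463578 to 481939 in shARID1A.4, most of it from MYCN. Of 8 markers, 6 were lower in shARID1A.2, 5 of them past a log2 difference of -1, and 1 was higher. Among all genes tested these shares were 39.4%, 9.64% and 40.0%. MYCN, the amplified oncogene of this line, measured 94497, 90242 and 95144 in shARID1A.2 and 416868, 426870 and 410526 in shARID1A.4 (log2 difference -2.16, SE 0.03, limma, adjusted p = 1.33e-16), or 4.48-fold. The control libraries stood at 120355 to 124192, much nearer to shARID1A.2. HAND2, a transcription factor of the sympathetic lineage, had a log2 difference of -1.31. The shARID1A.2 libraries were the lower ones, and the control mean of 19231 was above both conditions. GATA3 overlapped between the conditions, at 9558 to 10133 and 9873 to 10477 (log2 difference -0.04, adjusted p = 0.193). Chromogranin A (CHGA), a granule protein, was the marker with a higher level in shARID1A.2 (0.40).

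The adrenergic list, which also holds all 8 of these markers, had 9 genes higher and 16 lower in shARID1A.2 among 29 tested (median -0.23). Without the markers 8 were higher and 10 lower of 21, shares near those of all genes. Among genes of catecholamine synthesis and storage were the marker DBH, which makes noradrenaline, at 107, 123 and 111 against 872, 913 and 823 (-2.92), and SLC18A1, a vesicular amine transporter, at 134 to 161 against 522 to 576 (-1.90). Of 25 mesenchymal genes 13 were higher and 11 lower, beside 40.0% and 39.4% of all genes tested, with a median of 0.14. VIM, an intermediate filament gene, had a mean of 68738 against 34269 (1.0), while FOSL1 was lower (-1.90).

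Genes of the Hippo pathway, in which kinases restrain the coactivators YAP1 and WWTR1, were higher in shARID1A.2 for 11 and lower for 9 of 21 tested, close to the shares of all genes (40.0% and 39.4%). Past a log2 difference of 1 in size 7 were higher and 0 lower, beside 13.9% and 9.64% of all genes, and the median was 0.53. YAP1 was at 246, 236 and 251 in shARID1A.2 and 73.8, 53.5 and 53.9 in shARID1A.4 (log2 difference 2.01, SE 0.13, limma, adjusted p = 4.41e-09). Of 7 listed targets 5 were higher and 4 passed a log2 difference of 1, among them AMOTL2 at 630 to 678 against 99.8 to 125 (2.5), ANKRD1 at 200 to 253 against 57.1 to 69.9 (1.85) and CCN1 at 243 to 297 against 76.7 to 85.6 (1.72). For YAP1, ANKRD1 and CCN1 the control means of 531, 1141 and 666 were above both conditions.

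Genes of the cell surface and of signalling differed gene by gene. Of all genes tested, 40.0% were called higher in shARID1A.2 and 39.4% lower, and the counts below are to be read against these shares. Notch receptors were lower in shARID1A.2 for 3 of 4, with NOTCH3 at 511 to 602 against 1908 to 1971 (-1.78), and over the whole pathway 8 of 15 were lower and 3 higher (median -0.81). In the TGF-beta and BMP list, 11 were higher and 13 lower of 27, and 13 and 11 under total-read scaling. INHBE, an activin subunit gene, had 8 reads in the shARID1A.2 libraries together and 388 in shARID1A.4, a ratio of 51.9 (95% exact interval 26.1 to 121, counting error only), whereas TGFB3 was at 385 to 428 against 90.3 to 107 (2.02). In the WNT list 12 were higher and 10 lower of 27, with the receptor gene FZD8 at 179 to 217 against 34.9 to 47.6 (2.28) and the transcription factor gene TCF7 at 8.24 to 11.1 against 84.8 to 97.5 (-3.11). Of 22 receptor tyrosine kinases and neurotrophin receptors, 8 were higher and 10 lower. ALK, a kinase that is often altered in neuroblastoma, had a mean of 987 against 278 (1.83), and IGF1R of 3505 against 8343 (-1.25).

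Adhesion and guidance genes gave a similar picture. All genes tested gave 40.0% higher and 39.4% lower, with 13.9% and 9.64% past a log2 difference of 1 in size. Of 18 integrins 10 were higher and 4 lower in shARID1A.2. ITGA2, a collagen-binding alpha subunit, was at 699, 715 and 702 against 223, 287 and 260 (1.46), and ITGB1, its beta partner, at 8571 to 9124 against 19428 to 19691 (-1.16). Of 11 cadherins 6 were higher and 2 lower, CDH18 most (1.73), and of 32 matrix genes 13 were higher and 12 lower, with COL1A1 at 1317 to 1411 against 5459 to 5846 (-2.04) and COL3A1 at 2469 to 2936 against 643 to 754 (2.00). In the axon guidance list 16 were higher and 15 lower of 32, and past a log2 difference of 1 in size 9 and 6. The receptors split: ROBO2 was at 1369 to 1533 against 216 to 229 (2.70) and NRP1 had a mean of 2718 against 601 (2.18), while PLXNA4 had a mean of 1452 against 5313 (-1.87). Neuropeptide and endothelin genes were lower for 9 of 16 and higher for 5, with NPY at 638 to 699 against 4201 to 4544 (-2.71) and ADCYAP1R1, a receptor of the peptide PACAP, at 3636 to 3674 against 727 to 804 (2.26). Synaptic and channel genes were higher for 19 and lower for 16 of 39.

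Metabolic genes differed within their lists as well. All 28 hypoxia and glycolysis genes were called, beside 79.4% of all genes, 7 higher in shARID1A.2 and 21 lower (40.0% and 39.4% of all genes), with a median of -0.42. The glucose transporters SLC2A1 and SLC2A3 were higher, at 2765, 2773 and 2773 against 473, 535 and 498 (2.46) and at 1084 to 1136 against 179 to 197 (2.58), together with the peptide gene ADM (2.39). VEGFA, the angiogenic factor, was lower, at 927, 857 and 949 against 4236, 4314 and 4268 (-2.23). Of 35 cholesterol and fatty acid genes, 19 were higher and 15 lower, with INSIG1, a sterol sensor partner, at 1049 to 1084 against 3691 to 3766 (-1.81).

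Cell cycle genes mostly differed little in size. Among all genes tested, 40.0% were higher in shARID1A.2 and 39.4% lower. The S-phase list had 18 genes higher and 20 lower in shARID1A.2 of 43 (22 and 16 under total-read scaling), with a median of 0.02. The G2/M list leaned to shARID1A.2, with 33 higher and 12 lower of 54 and a median of 0.19. Under total-read scaling it had 43 higher and 8 lower, with a median of 0.34. In each list 1 or 2 genes passed a log2 difference of 1 in either direction. Among the G1 regulators, of which 11 were higher and 12 lower of 25 (11 and 9 under total-read scaling), CDK6, a kinase that drives entry into S phase, was the most different at 3714, 3906 and 3860 against 24724, 23847 and 24196 (-2.66). CDKN1A, the p21 inhibitor, was at 30.9 to 42.3 against 167 to 206 (-2.33) and CCNE1, cyclin E1, at 949 to 1037 against 350 to 398 (1.43). CCND1, cyclin D1, was nearly alike, at 12057 to 12208 and 13741 to 13802 (-0.18, adjusted p = 1.06e-06), and both conditions were far below the control mean of 39739. Of 22 p53 targets 10 were higher and 10 lower (11 and 9 under total-read scaling), and of 14 genes of the BCL2 family 5 and 7, with the pro-death gene PMAIP1 at 86.4 to 94.8 against 935 to 1027 (-3.40).

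Subunits of the remodeller itself and the silencing machinery were mostly near each other. Among all genes tested, 40.0% were higher in shARID1A.2 and 39.4% lower, and 23.6% passed a log2 difference of 1 in size. Of 30 SWI/SNF genes, 11 were higher and 15 lower in shARID1A.2 with a median of -0.08, which turned to 16 higher, 9 lower and 0.07 under total-read scaling, and 4 passed a log2 difference of 1 in size. These were DPF3 (1.90), SMARCD1 at 6133 to 6281 against 1839 to 1889 (1.73), PBRM1, the defining subunit of PBAF, at 1168 to 1256 against 3321 to 3483 (-1.51), and DPF2 at 1750 to 1780 against 3809 to 3923 (-1.13). For SMARCD1 the control mean of 4961 was nearer to shARID1A.2, and for PBRM1 the control mean of 3753 was nearer to shARID1A.4. Of 13 genes of RNA interference, 5 were higher and 7 lower, and 6 and 6 under total-read scaling. DROSHA, which cuts primary microRNAs, was the only one past a log2 difference of 1, at 4592 to 4651 against 1479 to 1660 (1.55). AGO2, the slicing argonaute, had a log2 difference of -0.90. Of 31 Polycomb and trithorax genes, 13 were higher and 13 lower, and 19 and 10 under total-read scaling.

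Genes that mark RNA quality and growth moved little. The counts in this paragraph stand beside 40.0% of all genes tested that were higher in shARID1A.2 and 39.4% that were lower. Of 78 cytosolic ribosomal protein genes, 58 were lower in shARID1A.2 and 6 higher, none by a log2 difference over 1, which became 30 lower and 24 higher under total-read scaling (median -0.18 and -0.03). Of 13 mitochondrially encoded genes 6 were lower and 1 higher, and under total-read scaling 4 lower and 7 higher. Markers of other cell types were low in sum but not alike. Of 14 tested of the 22 listed, 11 were higher in shARID1A.2 and 3 lower, with a median of 1.34, and the sum over all 22 was 12666 to 13903 in shARID1A.2, 11120 to 11277 in shARID1A.4 and 29945 to 30042 in the control. Nearly all of this came from fibroblast markers, at 11666 to 12833 and 10687 to 10844, while endothelial markers summed to 94.7 to 110 and 3.88 to 16. SOX10, which defines Schwann cells, and PECAM1, which defines endothelium, were at 0 in all 6 libraries. Of 12 tested genes of NF-kappaB and inflammation 8 were higher and 3 lower (median 0.62). The part of other cell types in these differences was not tested.

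The members of the comparison were then placed beside the other pairs of hairpins, which share no library with it. Over 12538 genes with a mean of at least 100 in the 6 libraries, the difference between shARID1A.2 and shARID1A.4 correlated at r = 0.54 (rho = 0.49) with that between shARID1B.2 and shARID1B.3. With the difference of shARID1A/B.2.3 minus shARID1A/B.4.2 it correlated at r = -0.83 (rho = -0.81). Genes higher in shARID1A.2 than in shARID1A.4 thus tended to be higher in shARID1A/B.4.2 than in shARID1A/B.2.3. Conditions of different pairs were not compared directly with each other. With the shARID1B difference minus the shARID1A/B difference, the correlation was r = 0.93 (rho = 0.91). These are correlations across genes, which are not independent replicates. Of the 2208 genes past a log2 difference of 1, 2125 had the opposite sign in the shARID1A/B pair (96.2%, against 81.1% of all 12538 genes), and 1849 had the same sign in the shARID1B pair (83.7%, against 67.9%).

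The named genes differed in size between the pairs. HNRNPA1 had a log2 difference of 4.11 here, of -3.40 in the shARID1A/B pair and of 0.39 in the shARID1B pair. STAT3, a transcription factor of cytokine signalling, was chosen after its values were seen, as were H19, TMEM123, CAP1 and HNRNPA1L2. It was at 586, 547 and 493 in shARID1A.2 and 5163, 5363 and 5142 in shARID1A.4, with a control mean of 3393. Its log2 difference was -3.27 (SE 0.05, limma, adjusted p = 9.64e-16), with 3.32 in the shARID1A/B pair and -0.58 in the shARID1B pair. TMEM123, a membrane mucin-like protein, and CAP1, an actin regulator, had the same signs with -3.30, 3.00 and -1.06, and with -2.99, 3.09 and -0.66. In the shARID1B pair, CHAC1 and SLC7A11 had larger differences than HNRNPA1, STAT3, TMEM123 and CAP1, but smaller ones than in the other pairs. Their values in the same order were -4.94, 4.71 and -2.43, and -4.68, 3.74 and -2.75. MYCN had -2.16, 1.36 and -0.99, and HMOX1 had -5.35, 5.34 and 0.72.

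Genes that were low in only 1 of both conditions were counted with limits chosen after the values were seen, namely a control mean of at least 100, a mean at least 4-fold below the control in the one and within 1.5-fold of it in the other. There were 81 such genes for shARID1A.2, TMEM123, CAP1, the polo-like kinase PLK2 and the glycolytic enzyme HK1 among them. Of these 81 genes, 70 were at least 2-fold below the control in shARID1A/B.4.2, 45 in shARID1B.2, 6 in shARID1B.3 and 0 in shARID1A/B.2.3. Among all 12310 tested genes with a control mean of at least 100, such a level was found for 8.65%, 4.86%, 5.73% and 8.30% in these conditions. These shares are not matched to genes selected in this way, and the same control libraries served for the selection and the counts. The counts are also not independent of the correlations between pairs given above. For shARID1A.4 there were 53, with HNRNPA1, the anthrax toxin receptor gene ANTXR1 and the surface glycoprotein gene THY1 among them. Of the 53 genes, 41 were at least 2-fold below the control in shARID1A/B.2.3, 28 in shARID1B.3, 4 in shARID1B.2 and 2 in shARID1A/B.4.2. PLK2 had a mean of 355 in shARID1A.2, 3076 in shARID1A.4 and 550 in shARID1A/B.4.2, and THY1 of 6836, 1107 and, in shARID1A/B.2.3, 1994. The genes named from these counts were also chosen after their values were seen, and what they share with the hairpins was not tested.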

How the data were processed

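Stranded mRNA libraries were sequenced from 7 conditions of 3 libraries each. The submitters' processing notes name STAR 2.5.3a, RSEM 1.3.0, DESeq2 1.26.0 and GRCh38. The signal that the authors deposited for each gene is its reads over the size factor of the library (0.841 to 1.203 here). Whole reads were recovered for 100% of values within 0.01 read, with a largest deviation of 0.0066 read. The 3 deposited tables of the authors' own comparisons, with log2 fold changes and p-values, were not used.

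As the deposited values are not raw counts, limma 3.58.1 with a trend was fitted on log2(value + 1) for the 6 libraries, which understates the difference of low genes. Genes were kept by the filter of edgeR 4.0.16 on the recovered reads, and p-values were adjusted by Benjamini-Hochberg over 17284 genes. edgeR's quasi-likelihood test and DESeq2 1.42.0 on the recovered reads were alternatives, beside other pseudocounts, scalings, filters, all 21 libraries, a replicate block and each library left out. An exact permutation test of 3 against 3 libraries cannot go below p = 0.1 and was not used. On simulated reads for this comparison (17284 genes), limma found 46 of 50 genes changed 1.5-fold, 50 of 50 changed 2-fold and 100 of 100 changed 4-fold, with 17 false calls. Only 200 genes, each with a mean of at least 100, were changed in the simulation, whereas 13715 were called in the data. Its rates therefore do not describe a comparison in which most genes differ. GC content and length were available for 98.8% of genes and correlated with the difference at rho = -0.04 and -0.06. R 4.3.3, Python 3.11.15 and, for the S-phase and G2/M lists, Seurat 5.3.0 were used. Gene coordinates are from GENCODE release 29.

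Genes named are ARID1A, ARID1B, the neuroblastoma markers and CCND1, the 12 largest differences in each direction among called genes with a mean of at least 100 and no overlap of the conditions, and up to 4 called members per list. Other members were named as examples of their list after their values were seen. The comparison, the lists and this rule were chosen with earlier results of these data known. Some genes that this rule selects are not reported here.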

Additional observations from a re-analysis of the deposited data

How the results depend on the processing

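The number of genes called was 13806 with edgeR, 12712 with DESeq2, 13695 and 13787 with pseudocounts of 0.5 and 5, 13737 with TMM and 13783 with total-read scaling, 14901 with no filter on low counts, 12582 with at least 10 reads in each library, and 13694 with all 21 libraries in the fit. Leaving out 1 library gave 13177 to 13400 calls, and 4066 to 4111 past a log2 difference of 1, where a setting without a filter gave 5666 and that of 10 reads 2962. Same-numbered libraries did not deviate together (correlations of -0.009, -0.07 and -0.057), and differently numbered ones gave -0.028 to 0.068. Such weak correlations, of deviations centred within each condition, cannot tell whether equal numbers mark a shared preparation. The replicate block gave 13700 calls, 4091 of them past a log2 difference of 1, and 11862 and 13531 in the shARID1B and shARID1A/B pairs. Of 156 named genes under 16 alternatives, 2461 values kept their direction and call. The 2 that reversed were ARID1A (0.09) and GATA3 (0.11) under total-read scaling, where CCND1 (-0.03) was no longer called. ARID1A passed the threshold with all 21 libraries in the fit (-0.06) and without shARID1A.4 replicate 2 (-0.09). Under total-read scaling the medians turned to 0.07 for SWI/SNF, 0.03 for RNA interference and 0.08 for G1 genes. Their sign also turned for receptor tyrosine kinases and neurotrophin receptors (0.08), axon guidance (0.11) and mitochondrially encoded genes (0.08). The TGF-beta, WNT and p53 lists turned from -0.02 to 0.13 each. The calls among mitochondrially encoded genes rose from 7 to 11. The G1 median was also 0.02 without a filter, and that of the matrix genes -0.01 with at least 10 reads. The causes of these changes were not tested. Genes with few reads, such as GDF15 and INHBE, are limited by depth.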

Other observations

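A few receptor and ligand genes with few reads had large ratios between the conditions. VIPR2, a receptor of the peptide VIP, had 242 reads in the shARID1A.2 libraries together and 5 in the shARID1A.4 libraries, a ratio of 45.3 (95% exact interval 19.1 to 141, counting error only), with a control mean of 0.39. KDR, the receptor of VEGFA, had 122 and 8 reads, a ratio of 14.3 (7.01 to 33.8). The guidance ligand NTN4 had 124 and 8 reads, a ratio of 14.5 (7.13 to 34.3), and the chemokine CCL2 had 91 and 6, a ratio of 14.2 (6.27 to 39.7). Among genes low in 1 of both conditions, LOXHD1 was listed with a mean of 3.65 in shARID1A.2, 174 in shARID1A.4, 18.8 in shARID1A/B.4.2 and 204 in shARID1A/B.2.3, beside 123 in the control, and was chosen after its values were seen. TXNDC5, a disulfide isomerase chosen in the same way, had means of 9901 and 2488 in shARID1A.2 and shARID1A.4, and of 12456 and 1556 in shARID1B.2 and shARID1B.3, with 8988 in shARID1A/B.2.3.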
